A study of Mus musculus with 4 samples.

Results

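ERG belongs to the ETS family of transcription factors, which share a DNA-binding domain that reads a GGAA core, and 7 genes of that family are described here: Erg itself, Fli1, Ets1, Ets2, Elk3, Etv6 and Elf1. They were chosen by name, as Erg and 6 relatives with RNA in endothelial cells (ECs), and are 7 of the 20076 gene rows measured. The question was whether the relatives differ between ECs of mice labelled as lacking ERG in ECs and their controls, and which other lung cells hold their RNA. Whole lungs of mice on floxed Erg alleles (ERG fl/fl) were profiled by single-cell RNA-seq. The 2 libraries labelled WT carry ERG fl/fl alone, and the 2 libraries labelled ERG CKO carry CDH5-CreER(T):ERG fl/fl, in which the Cdh5 promoter drives a tamoxifen-inducible Cre recombinase in ECs. Mice of both groups, controls included, received 5 daily injections of 0.5 mg tamoxifen and the lungs were taken 90 days later, so tamoxifen and the floxed alleles are shared and Cre is not controlled for. The labels used here give no age. Replicate 1 of both groups held Xist RNA and replicate 2 of both held the Y-linked Ddx3y, so sex was balanced between the groups.

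ERG and FLI1 are close relatives that bind the same core at endothelial enhancers, keep EC identity genes on and hold inflammatory genes down; FLI1 also acts with ERG in megakaryocytes, the source of platelets. ETS1 and ETS2 are targets of MAP kinase signalling and work in lymphocytes and myeloid cells as well as in vessels. ELK3 is a partner of serum response factor that mostly represses in the absence of a growth signal, ETV6 is a repressor needed in blood stem cells, and ELF1 serves lymphocytes and early blood and vessel cells.

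In the mouse genome 4 of the 7 lie as neighbouring pairs. Fli1 (chromosome 9, 32422204 to 32542861, minus strand) and Ets1 (chromosome 9, 32636221 to 32757820, plus strand) are 93359 bases apart. Erg (chromosome 16, 95359169 to 95586593, minus strand) and Ets2 (chromosome 16, 95702075 to 95721051, plus strand) are 115481 bases apart. The other members lie alone on chromosome 10 (Elk3, 93247414 to 93311135), chromosome 6 (Etv6, 134035700 to 134270158) and chromosome 14 (Elf1, 79481194 to 79582494). Positions are those of GENCODE on GRCm38, the assembly also named mm10.

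The matrix held 9363 cells, between 1852 and 3097 per library, with a median of 4611 to 4899 unique molecular identifiers (UMIs, each marking 1 captured RNA molecule) per cell. Clusters were named from marker genes into 16 classes, of which ECs were the largest with 2428 cells (565 and 678 in WT, 703 and 482 in ERG CKO). All 8 EC markers, among them Cdh5, Pecam1 and Cldn5, were higher in the EC class than in the other cells. A cluster of 916 cells with EC markers but a median of 1006 UMIs stayed unnamed and is kept apart as the low-depth cluster. Of the ECs, 10.4% and 12.5% in WT and, in ERG CKO, 32.3% and 17% carried a UMI of Ptprc (a leukocyte marker), Pf4 or Ppbp (platelet markers). The summed level of the 8 platelet markers in ECs was 74.4 and 147 CPM (UMIs of the gene or genes in 1000000 UMIs of the class) in WT against 348 and 204 CPM in ERG CKO. The sum of the 5 erythroid markers was 34.0 and 45.6 CPM against 1357 and 2024 CPM. Only 7 barcodes were found in more than 1 library.

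Among the named classes, Erg RNA had its highest mean in ECs. The unnamed low-depth cluster lay higher (156 and 171 CPM in WT, 143 and 132 CPM in ERG CKO). The level in ECs was 86 and 88.1 CPM in the WT libraries and 107 and 83.5 CPM in the libraries labelled ERG CKO. The mean of ECs was 91.0 ± 10.5 CPM (SD, n = 4). Mural cells (78.4 ± 30.1 CPM), platelets (75.9 ± 32.3), fibroblasts (62.3 ± 11.7) and lymphatic ECs (59.4 ± 26.2, from 25 cells) followed, and each neighbour in this order overlapped the next across libraries. Those classes also carried EC marker RNA. The 8 EC markers summed to 14044 to 17887 CPM in ECs, 6392 to 9429 CPM in platelets, 2856 to 7661 CPM in mural cells and 4686 to 6037 CPM in fibroblasts, and its part in the Erg values was not tested. Epithelial cells held 27.4 ± 9.9 CPM of Erg. Every leukocyte class lay at or under 4.04 CPM on average, and interstitial macrophages had 0 Erg UMIs in 81 cells, which allows up to 6.89 CPM at 3 UMIs over the class (counting error only).

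Fli1 had a wider range. Platelets held 249 ± 31.7 CPM and ECs 190 ± 68.8 CPM, the SD of ECs being that of 2 groups that differed (below). Lymphatic ECs (160 ± 123 CPM), B cells (156 ± 25.3) and natural killer (NK) cells (132 ± 19.5) came next, and epithelial cells were lowest at 26.7 ± 26.8 CPM. Neighbours in the order overlapped from platelets down to alveolar macrophages (92.7 ± 3.9 CPM). Fli1 RNA was found in every named class, whereas Erg RNA was near 0 in leukocytes.

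Ets1 and Elf1 were lymphocyte genes first. T cells held 842 ± 85.1 CPM of Ets1, B cells 688 ± 95.4 and NK cells 607 ± 40.1, ECs held 416 ± 32.5, and alveolar macrophages stood at the bottom with 15.5 ± 7.9 CPM. For Elf1, T cells (286 ± 23.7 CPM) lay above B cells (216 ± 21.9) in every library, and B cells above NK cells (174 ± 11.4). ECs held 127 ± 8.1 CPM of Elf1 and could not be told apart from mural cells or platelets.

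Ets2 was a neutrophil gene. Neutrophils held 1323 ± 287 CPM, with a lowest library at 1003 CPM. ECs followed with 309 ± 21.6 CPM, overlapping monocytes (261 ± 32.6), and NK cells held 16.4 ± 10.4 CPM. Etv6 was highest in monocytes (88.4 ± 6.8 CPM), then in dendritic cells (64.9 ± 5.8), without overlap of either with the class below it, and ECs held 30.5 ± 5.3 CPM.

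Elk3 had its highest means in the vessel classes. Lymphatic ECs held 520 ± 147 CPM, though from 50 UMIs in 25 cells. Blood vessel ECs held 215 ± 41.2 CPM, and neither class overlapped the next in order, platelets (113 ± 35.2). All of these levels are CPM of a class, and they are used to order the classes for a gene and not the genes for a class.

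**Figure D1:**
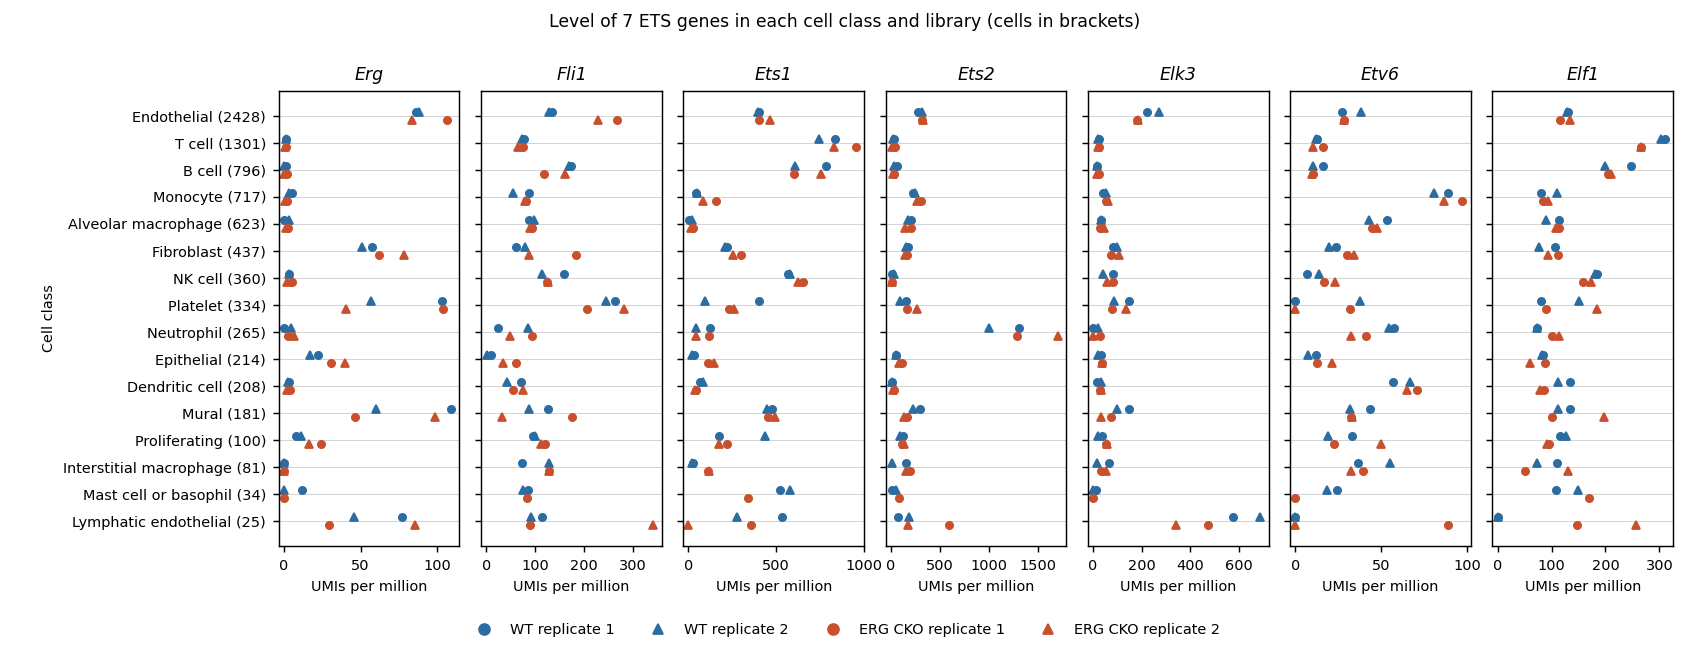
Level of each of the 7 genes (CPM, linear axis of its own in each panel) in 16 named cell classes, with 1 point per library, blue for WT and orange for ERG CKO, circles for replicate 1 and triangles for replicate 2; the number of cells stands in brackets. Erg lay at 83.5 to 107 CPM in ECs and Ets2 at 1003 CPM or more in neutrophils.

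Likeness of pattern was measured as the Pearson correlation of log2(CPM + 1) over the 16 class means, across 11279 genes that reached 20 CPM in a class. The classes share libraries and differ in depth, so these values are descriptions. The genes most like Erg were Tmem44 (r = 0.98), Slc9a3r2 (0.98), Adgrl4 (0.97), Itga1 (0.97) and Sptbn1 (0.97). For Ets1 they were Gimap1 (0.94), Gimap5 (0.86) and Gimap6 (0.85), 3 members of a gene family of lymphocyte GTPases, and for Elf1 Shisa5 (0.81), Dgka (0.81) and A930024E05Rik (0.79). Elk3 was nearest to Snrnp27 (0.94), Abcg2 (0.94) and Emc3 (0.93). Etv6 was nearest to Gdpd3 (0.92), Synj1 (0.91) and Pgam1 (0.87), and Ets2 to 6430548M08Rik (0.87), Msl1 (0.86) and Kctd20 (0.85). Fli1 had no close match, its best being Asb3 (0.77), Rmnd5b (0.77) and Fbxw2 (0.77).

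Among the relatives in ECs, Fli1 RNA was higher in the libraries labelled ERG CKO. The WT libraries stood at 136 and 129 CPM and the others at 268 and 228 CPM. The lowest ERG CKO library thus lay well above the highest WT library. The log2 fold change was 0.87 (SE 0.14, 95% interval 0.55 to 1.19) with an adjusted p of 0.0201 (edgeR's quasi-likelihood test, Benjamini-Hochberg over 10639 genes). It was 1 of 7 members called, in a fit that called 342 genes, 3.21% of those tested (204 higher, 1.92%, and 138 lower, 1.3%). The call was lost without WT replicate 1 (0.91, adjusted p = 0.147) and without WT replicate 2 (0.83, adjusted p = 0.196), each of which leaves 1 WT library, assumed to vary like the other group. Fli1 passed in each of the 13 other alternatives run, between 0.80 and 0.98. Among them, ECs with no UMI of Ptprc, Pf4 or Ppbp gave 0.80 (adjusted p = 0.0271). The part of erythroid RNA, which was higher in both ERG CKO libraries, was not tested.

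Erg RNA itself was not lower in ECs of the libraries labelled ERG CKO. The values given above overlapped between groups, the log2 fold change was 0.10 (SE 0.16, 95% interval -0.26 to 0.46, adjusted p = 0.838), and it turned to -0.13 without ERG CKO replicate 1. The matrix holds 1 count of molecules per gene and none per exon, so a message that lacks the floxed part can be counted like a whole one. Erg counts therefore check neither the labels nor the loss of the protein.

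Elk3 had lower values there but did not pass. WT libraries held 224 and 269 CPM and the others 179 and 187 CPM, so both ERG CKO libraries lay under both WT libraries. The log2 fold change was -0.47 (SE 0.13, 95% interval -0.78 to -0.16), with an unadjusted edgeR p of 0.0086 and an adjusted p of 0.124, which did not pass the threshold of 0.05. With no filter on low counts the adjusted p was 0.0376. With the replicate number as a term, which here also separates the libraries with Xist from those with Ddx3y, the value was -0.46 and the adjusted p 0.0118.

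None of the other relatives passed in ECs as a whole. Ets1 had 403 and 396 CPM in WT and 400 and 464 CPM in ERG CKO, and its log2 fold change of 0.07 had a 95% interval of -0.23 to 0.38. Ets2 had 277 and 314 CPM against 317 and 325 CPM (0.08, interval -0.22 to 0.38). Both groups overlapped for Ets1, whereas for Ets2 both ERG CKO libraries lay just above the WT libraries. Both intervals lay below the estimate for Fli1, and differences inside them could not be seen with 2 libraries a group. Etv6 had 26.9 and 38.3 CPM against 28.5 and 28.2 CPM (-0.25, interval -0.71 to 0.22). Elf1 had 130 and 128 CPM against 115 and 134 CPM (-0.09, interval -0.38 to 0.20).

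**Figure D2:**
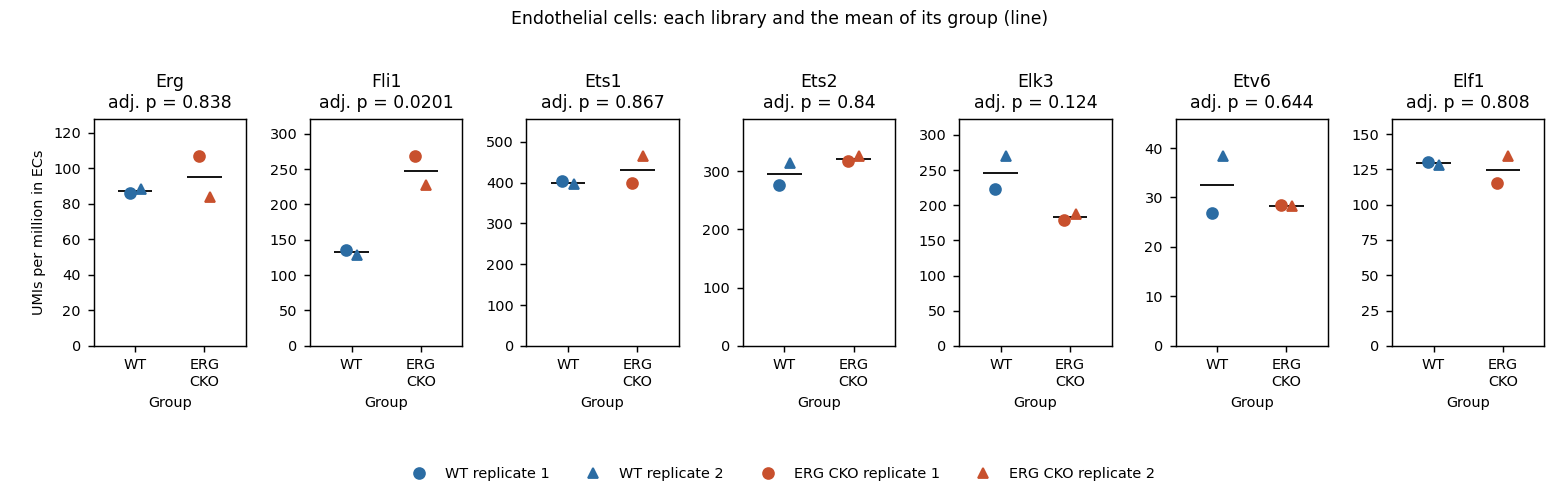
Level of each of the 7 genes in ECs (CPM, axes from 0), with 1 point per library, a line at each group's mean, and the adjusted p of edgeR's quasi-likelihood test above the panel. Fli1 stood at 136 and 129 CPM in WT against 268 and 228 CPM in ERG CKO, and Elk3 at 224 and 269 CPM against 179 and 187 CPM.

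The share of ECs with at least 1 Fli1 UMI moved with the level. WT had 40.7% and 37.8% such cells, and ERG CKO 65.7% and 57.1%. ECs of ERG CKO were deeper, with a median of 5541 and 4684 UMIs against 4234 and 4026 UMIs. With each cell thinned to 1000 UMIs the shares were 13.7% and 10.4% against 23.7% and 18.8%, still without overlap, with 2 or 3 shallower ECs left out per library. In epithelial cells, taken as a class low in Fli1, the thinned share was 0% of 53, 29 and 17 cells in 3 libraries and 12.5% of 40 cells in ERG CKO replicate 1, with 4, 1, 49 and 21 shallower cells left out. A permutation test of 2 against 2 libraries can give no p under 0.333, and the exact two-sided p for Fli1 was 0.333.

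Thinned shares of the others were as follows. Elk3 was found in 22.9% and 25.2% of ECs in WT against 15.3% and 19.0%, with 1.46% to 3.03% of B cells as background. Erg was found in 7.10% and 7.41% against 8.86% and 7.52%, with at most 0.480% in T cells. For Erg and for Ets2 (25.8% and 26.2% against 26.7% and 28.6%) both ERG CKO libraries lay slightly above both WT libraries, while Ets1, Etv6 and Elf1 overlapped between the groups.

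Fli1 was higher in the libraries labelled ERG CKO both among ECs with an Erg UMI and among ECs without one. ECs with an Erg UMI held 126 and 122 CPM of Fli1 in WT, against 275 and 222 CPM. ECs without one held 141 and 133 CPM against 261 and 232 CPM. At this depth a cell without an Erg UMI is not a cell without Erg RNA. No single cell held more than 2.84% of a library's Fli1 UMIs in ECs.

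ECs were then split into 8 clusters, with the members and all 342 genes called in ECs left out of the clustering. Alveolar capillary ECs (aCap, also called aerocytes, the wide thin cells of the gas exchange surface) formed cluster 3, with 8 of 8 markers such as Car4, Ednrb and Apln. General capillary ECs (gCap, which renew the bed) were named only in cluster 2, from Gpihbp1, Aplnr, Plvap and Kit, a cluster led by interferon genes such as Ifit1 and Iigp1. Clusters 0 and 1, the largest, were left unnamed and are given by number. Cluster 0 had under 3 markers of any subtype. Cluster 1 carried 5 gCap markers (Gpihbp1, Cd93, Ptprb, Kit and Adgre5) against 4 in cluster 2, but its leading genes were those of artery. Cluster 2 is thus only a part of the ECs with gCap markers. Cluster 4 carried platelet markers, cluster 5 was vein, cluster 6 artery, and cluster 7 held 22 cells with B cell markers.

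In aCap ECs both genes of the chromosome 9 pair were higher in ERG CKO. Fli1 stood at 64.7 and 73.1 CPM in WT, against 239 and 226 CPM. Ets1 stood at 265 and 235 CPM in WT, against 413 and 421 CPM. Neither gene overlapped between the groups, and the share of all genes without overlap was not counted. The log2 fold change of Fli1 was 1.73 (SE 0.22, adjusted p = 0.000109), and it passed without any one library (1.63 to 1.84). That of Ets1 was 0.73 (SE 0.19, adjusted p = 0.0181), lost without WT replicate 2 (0.65, adjusted p = 0.188). They were 2 of 6 members called among 6765 genes tested in 43, 71, 102 and 83 cells, where 9.95% of genes were called. Elf1 fell short of the threshold at -0.52 (SE 0.22, adjusted p = 0.191), and Erg stood at 98.5 and 51.9 CPM against 93.7 and 61.5 CPM. Etv6, with 34 UMIs in all, did not pass the filter on low counts. The EC clusters were made after the libraries were aligned. In a clustering of all cells without alignment, a cluster led by Fibin and Ednrb held 60 and 107 WT cells against 7 and 4 in ERG CKO. Another, with Ednrb among its leading genes, held 1 and 5 against 368 and 286. The 8 aCap markers summed over all ECs to 2155 and 2744 CPM in WT against 1313 and 2139 CPM in ERG CKO. Whether aCap ECs of the 2 groups were alike was not tested.

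In WT, aCap ECs were low in Fli1. Their level lay under that of every other EC cluster of the same library but the 22 cells with B cell markers, of which WT replicate 2 listed 0 UMIs, and in ERG CKO it lay among the other clusters. Whether the group difference was larger in aCap ECs than in clusters 0, 1 and 2 together was tested in 1 fit with mouse as a term, a comparison added after the values had been seen. The difference of log2 fold changes was 0.92 for Fli1 (SE 0.24, adjusted p = 0.0317) and 0.75 for Ets1 (SE 0.18, adjusted p = 0.0186), 2 of 7 members where 4.99% of 9519 genes were called. Fli1 lost this call without WT replicate 1 (0.80, adjusted p = 0.201), WT replicate 2 (1.14, 0.0723) or ERG CKO replicate 2 (0.86, 0.0691), and Ets1 without WT replicate 2 (0.67, 0.155) or ERG CKO replicate 1 (0.71, 0.0666).

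Fli1 was also higher outside aCap ECs. Over clusters 0, 1 and 2 together it gave 0.78 (SE 0.15, adjusted p = 0.0117) where 4.25% of genes were called, lost without WT replicate 2 (0.71, adjusted p = 0.0744), and Ets1 gave -0.03. In gCap ECs WT had 163 and 135 CPM and ERG CKO 295 and 296 CPM, a log2 fold change of 0.97 (SE 0.21, adjusted p = 0.0376). This was 1 of 7 members called where 1.11% of 6869 genes were, and it was lost without WT replicate 1 or WT replicate 2 (largest adjusted p = 0.435). A coarser split that put 1160 cells in gCap gave 0.89 (adjusted p = 0.0147). Elk3 had 244 and 304 CPM against 189 and 150 CPM in gCap (-0.68, SE 0.22, adjusted p = 0.216). With the replicate number as a term in edgeR, the value for Elk3 was -0.66 and the adjusted p 0.0368.

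In cluster 0, Fli1 had 113 and 127 CPM against 232 and 216 CPM (0.86, adjusted p = 0.0101, with 4.29% of genes called), and the call was lost without WT replicate 1 (adjusted p = 0.0912). Clusters 1, 4 and 5 gave 0.64, 0.90 and 0.49 without passing (adjusted p = 0.206, 0.123 and 0.659), in fits that called 1.64%, 0.714% and 0.165% of genes. In each of them both ERG CKO libraries lay above both WT libraries, and how often other genes did so was not counted. The low-depth cluster, outside the EC class, had 107 and 123 CPM against 259 and 207 CPM (1.06, adjusted p = 0.269, 0.248% called). Artery ECs, too few to test, had 134 and 98 CPM of Fli1 against 179 and 266 CPM, and 103 and 131 CPM of Ets1 against 231 and 353 CPM.

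**Figure D3:**
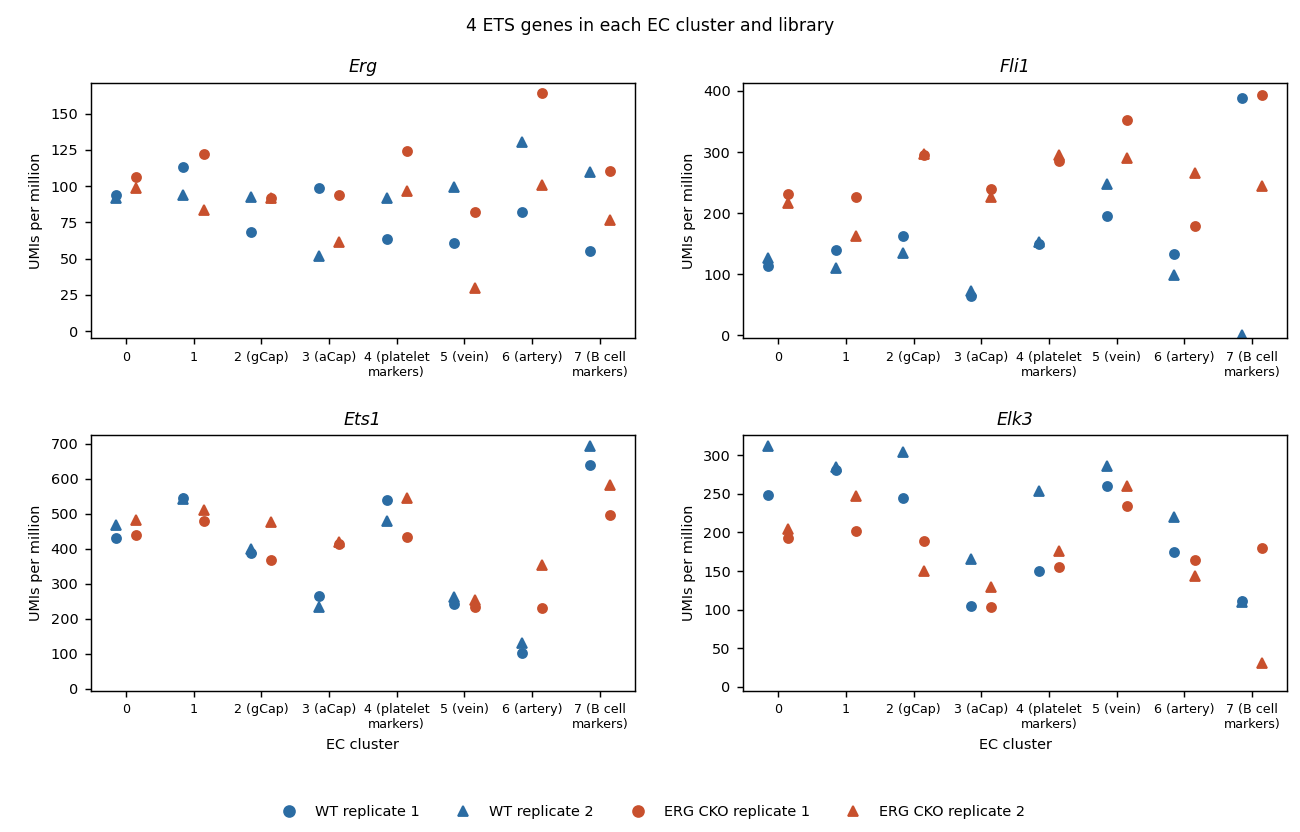
Level of Erg, Fli1, Ets1 and Elk3 (CPM) in each of 8 EC clusters, with 1 point per library, blue for WT and orange for ERG CKO. In aCap ECs Fli1 lay at 64.7 and 73.1 CPM in WT against 239 and 226 CPM, and Ets1 at 265 and 235 CPM against 413 and 421 CPM, while Ets1 overlapped between the groups in clusters 0, 2, 4 and 5.

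Outside ECs no member passed. The 10 other classes with at least 20 cells in each library gave 56 fits of a member, of which edgeR called 0 and 8 had an unadjusted p under 0.05; DESeq2 was run on ECs only. Of all genes tested, those fits called 0.705% in fibroblasts, 0.45% in dendritic cells, 0.164% in B cells, 0.104% in platelets, 0.0962% in NK cells, 0.0707% in T cells, 0.0126% in monocytes and 0% in neutrophils, alveolar macrophages and epithelial cells. Over all other named cells as 1 sum, 0% of 13663 genes were called, 688 had an unadjusted p under 0.05, and Fli1 gave 0.23 (SE 0.11, adjusted p = 0.9996). The group difference in ECs minus that in the other cells was 0.64 for Fli1 (SE 0.20, adjusted p = 0.249 by edgeR), in a fit that called 0.675% of 13489 genes, so Fli1 was not shown to differ between ECs and other cells. The same difference was -0.52 for Elk3 (SE 0.20, adjusted p = 0.423).

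Fli1 in the leukocyte classes gave intervals that included 0. In T cells the log2 fold change was -0.07 (95% interval -0.39 to 0.25), and in alveolar macrophages it was 0.01 (-0.29 to 0.30). Platelets, the class highest in Fli1, gave -0.15 with a wide interval (-1.06 to 0.76).

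Over the 10 other classes, estimates ran from -0.85 to 2.01 for Ets1 (7 above 0) and from -0.29 to 2.65 for Fli1 (6 above 0). Among the larger values that did not pass were those of epithelial cells, fibroblasts and monocytes. Ets1 in alveolar macrophages gave 1.88 in the fit without WT replicate 2. Epithelial cells gave 2.65 for Fli1 (SE 0.62, adjusted p = 0.281) and 2.01 for Ets1 (SE 0.33, adjusted p = 0.160), but their median depth was 18045 and 20739 UMIs in WT against 2426 and 720 UMIs in ERG CKO, and their EC markers summed to 854 and 909 CPM against 2243 and 1905 CPM. The part of depth and of EC RNA in these values was not tested. Fibroblasts gave 1.15 for Fli1 (SE 0.31, adjusted p = 0.169) from 61.0 and 80.2 CPM in WT against 185 and 88.3 CPM in ERG CKO. The high library was ERG CKO replicate 1, without which the value was 0.33, and the call was made without WT replicate 2 (1.30) or without ERG CKO replicate 2 (1.45). Monocytes gave 1.25 for Ets1 (SE 0.27, adjusted p = 0.228) from 45.0 and 51.1 CPM against 159 and 81.5 CPM. It passed in 3 of the 4 fits that left out a library, and the value was 0.70 (adjusted p = 0.693) without ERG CKO replicate 1.

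**Figure D4:**
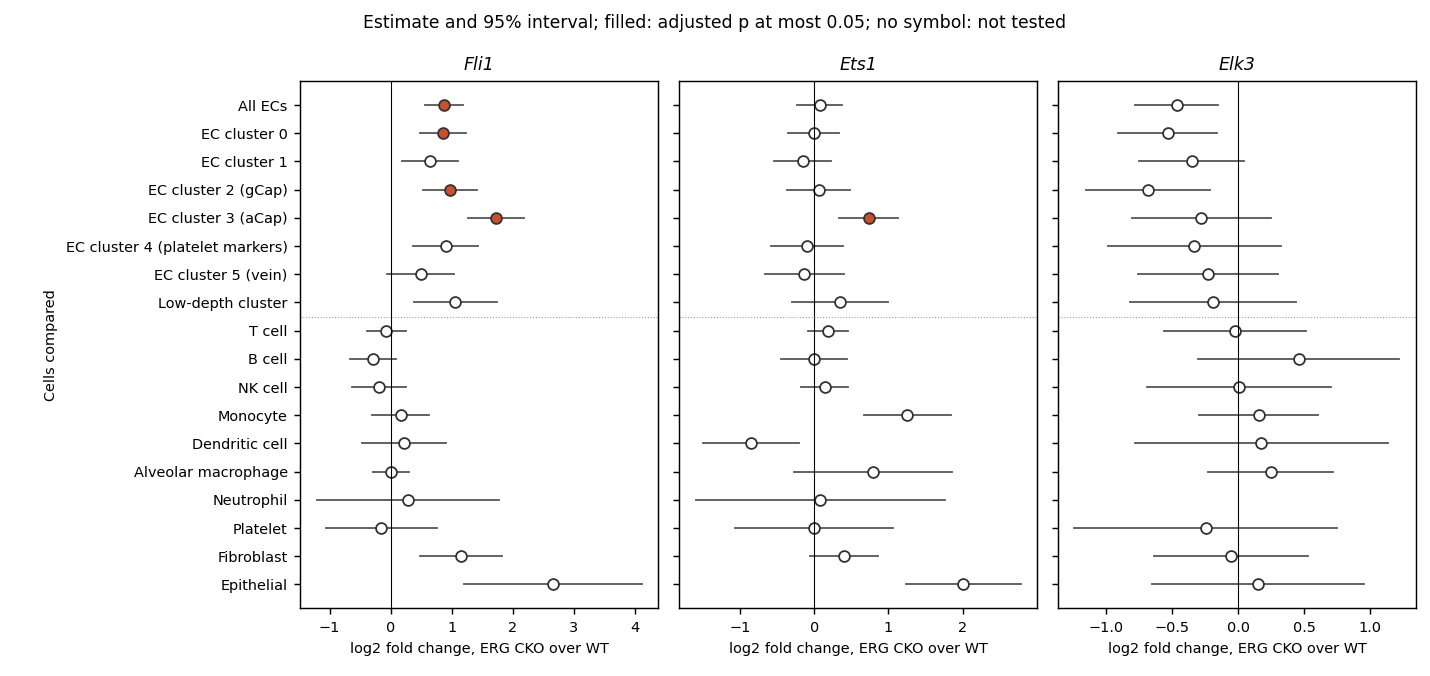
Log2 fold change of ERG CKO over WT with its 95% interval for Fli1, Ets1 and Elk3 in ECs and EC clusters (above the dotted line) and in the other classes (below it); filled symbols had an adjusted p at most 0.05. Fli1 was above 0 in every EC set, from 0.49 in vein to 1.73 in aCap ECs, and its intervals in T cells, B cells, NK cells and alveolar macrophages included 0.

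Of 19 further ETS family genes, 17 were in the matrix and 9 passed the filter on low counts in ECs. edgeR called 0 of them, beside 3.21% of all genes, with 2 at an unadjusted p under 0.05, beside 1750 of all 10639 genes, and DESeq2 called 0 of 11, beside 308 of 12334. Counts this small lie near those shares and set the list apart in neither direction. These 2 were Etv1 (2.24 and 1.6 CPM in WT against 10.9 and 5.34 CPM in ERG CKO, log2 fold change 2.10, adjusted p = 0.0852) and Etv5 (2.62 and 4.79 CPM against 12.2 and 6.86 CPM, 1.35, adjusted p = 0.181), relatives that answer growth factor signals. Both lay at or under 12.2 CPM in every library. The median over the 9 was 0.03, beside 0.01 over all genes. GABPA, ELK4 and ELF2, which serve many cell types, gave estimates between -0.21 and 0.03. Elsewhere Spi1, the myeloid master factor also called PU.1, was highest in neutrophils (840 ± 88 CPM), Spib in B cells (150 ± 37.7), and Ehf (48.4 ± 3.8) and Elf3 (52.2 ± 9.4) in epithelial cells.

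Genes that ERG and FLI1 are known to switch on in ECs leaned lower. Of 22 listed and tested, 19 had estimates under 0 and 3 above 0, with a median of -0.34 beside 0.01 over all genes. edgeR called 4 and DESeq2 4, in both directions, beside 3.21% of all genes in edgeR. An unadjusted p under 0.05 was found for 13 of the 22, beside 1750 of all 10639 genes. Tek, the receptor for angiopoietins, fell from 518 and 533 CPM to 284 and 271 CPM (-0.96, SE 0.13, adjusted p = 0.0121). Aplnr, the apelin receptor, fell from 114 and 131 CPM to 73.4 and 62.2 CPM (-0.88, SE 0.15, adjusted p = 0.0239).

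On the same list Emcn and Cd34, surface sialomucins, rose. Emcn went from 302 and 346 CPM to 881 and 987 CPM (1.49, SE 0.14, adjusted p = 0.0051), and Cd34 from 245 and 225 CPM to 444 and 564 CPM (1.06, SE 0.15, adjusted p = 0.0159). The 4 genes were named because they were called, so their lack of overlap between the groups adds no support. All 4 calls were lost without WT replicate 2, and those of Tek, Aplnr and Cd34 also without WT replicate 1 (largest adjusted p = 0.180).

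The make-up of the EC class differed between the groups beside these 4 genes. In the first clustering, a cluster with Tek among its 10 leading genes held 261 and 314 WT cells against 187 and 69 cells in ERG CKO, and one led by Emcn, with Cd34 among the 10, held 92 and 83 against 226 and 174. Values within the 6 EC clusters tested, which were made without the called genes, were added after the data had been seen. Cluster 2 held the ECs named gCap, cluster 3 the aCap ECs, cluster 4 ECs with platelet markers and cluster 5 the vein ECs. Emcn was called in clusters 0 to 4, from 1.02 in aCap ECs to 2.14, and gave 0.50 in vein (adjusted p = 0.598). Cd34 was called in clusters 0, 1, 2 and 4, from 1.48 to 2.29, and gave 0.20 in aCap ECs and 0.04 in vein (adjusted p = 0.611 and 0.993). Tek was called in clusters 0 and 1 (-0.94 in both) and in aCap ECs (-1.39), and gave -0.83, -1.35 and -0.39 in clusters 2, 4 and 5 (adjusted p = 0.0553, 0.0643 and 0.761). Aplnr was called in clusters 0 and 1 (-0.95 and -0.90), gave -1.07, -0.74 and 1.13 in clusters 2, 4 and 5 (adjusted p = 0.0781, 0.448 and 0.401), and was not tested in aCap ECs.

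Cdh5, whose promoter drives the Cre, and Robo4 are named here after their values were seen. Cdh5 had 1914 and 1849 CPM against 1470 and 1629 CPM (-0.32, adjusted p = 0.239) and Robo4 124 and 124 CPM against 88.5 and 80.5 CPM (-0.58, adjusted p = 0.0539). 6 of the 22 (Cdh5, Cldn5, Egfl7, Emcn, Pecam1 and Tie1) were also markers by which ECs were named.

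RefSeq promoters, 250 bases before to 50 after a start, were at hand for Erg, Ets2, Elk3, Etv6 and Elf1 and, of the linked genes called, for Tek, Emcn and Cd34. Those of Tek and Emcn are shown because the genes lie on one list and moved in opposite directions. They are written 5′ to 3′ on GRCm38.p6, the GGAA core and its complement TTCC in capitals, Tek from chr4:94739039-94739338 and Emcn from chr3:137340828-137341127, both on the plus strand.
Tek promoter: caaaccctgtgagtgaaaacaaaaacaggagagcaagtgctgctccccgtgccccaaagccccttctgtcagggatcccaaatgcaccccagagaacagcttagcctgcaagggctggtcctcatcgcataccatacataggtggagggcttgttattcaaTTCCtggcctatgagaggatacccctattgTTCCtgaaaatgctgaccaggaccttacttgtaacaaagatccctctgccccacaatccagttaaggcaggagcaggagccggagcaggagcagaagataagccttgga
Emcn promoter: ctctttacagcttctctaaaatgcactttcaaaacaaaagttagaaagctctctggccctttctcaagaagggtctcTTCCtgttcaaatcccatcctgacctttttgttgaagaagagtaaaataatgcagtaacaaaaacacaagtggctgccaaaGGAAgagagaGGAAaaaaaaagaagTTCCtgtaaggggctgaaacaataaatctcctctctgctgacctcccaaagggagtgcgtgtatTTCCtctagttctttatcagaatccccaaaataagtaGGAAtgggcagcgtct
The Tek window held 2 matches to GGAA on either strand and the Emcn window 6. Such matches are common, since 96.0% of 32851 promoters of this length held at least 1, with a median of 3. The longer CAGGAAG, which contains the core, was found once in the Emcn and Cd34 windows and not in that of Tek, and in 13.3% of all promoters. Among the members' windows it was found in Elk3, Etv6 and 1 of 3 Erg windows. These matches are letters in a window and not sites of binding.

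Genes that ERG is known to hold down were few, and their count is read against all genes. Of 7 described, 5 passed the filter on low counts and edgeR called 0, beside 3.21% of all genes, with 2 (Icam1 and Cxcl10) at an unadjusted p under 0.05, beside 1750 of all 10639 genes, and DESeq2 called 0 of 6, with 1 at an unadjusted p under 0.05. Estimates were under 0 for 4 and above 0 for 1, with a median of -0.54 that turned to 0.69 without WT replicate 2. The adhesion molecule Icam1 had 264 and 366 CPM against 239 and 206 CPM (-0.54, adjusted p = 0.178), and the chemokine Cxcl10 23.9 and 76.9 CPM against 129 and 87.3 CPM (1.06, adjusted p = 0.270). Acta2, a smooth muscle actin, had 0.748 and 20.4 CPM against 1.56 and 4.19 CPM (-2.08, adjusted p = 0.403).

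Factors that bind beside ETS proteins were near the background of all genes. Of 8 tested, edgeR called 0, beside 3.21% of all genes, and DESeq2 called 0, beside 308 of 12334. An unadjusted p under 0.05 was found for 2 with each tool, beside 1750 of 10639 genes in edgeR and 1010 of 12334 in DESeq2, and the median was -0.03 beside 0.01 over all genes. Those 2 in edgeR were Jun, an AP-1 subunit (4231 and 4239 CPM against 3227 and 3433 CPM, -0.39, adjusted p = 0.130), and Gata2, an EC and blood stem cell factor (450 and 365 CPM against 283 and 350 CPM, -0.40, adjusted p = 0.265). Runx1 had the largest estimate at 0.41 (adjusted p = 0.787), from under 10 CPM in every library.

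**Figure D5:**
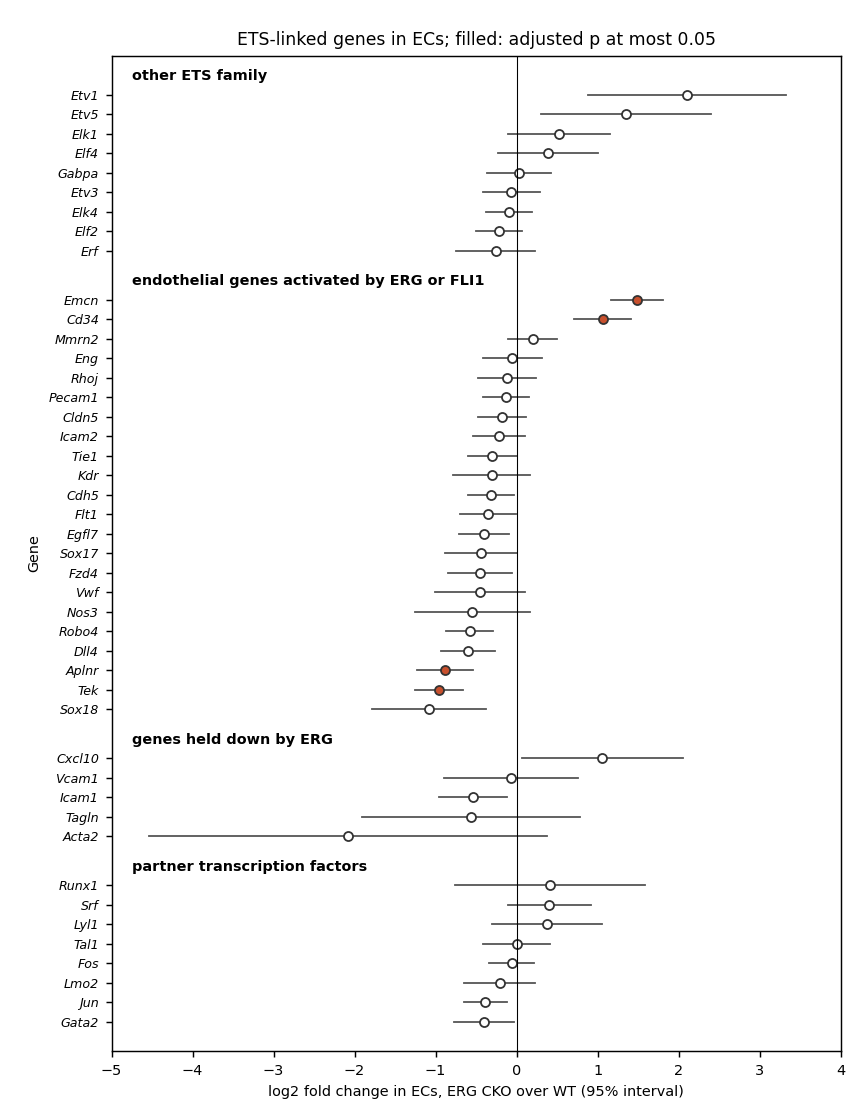
Log2 fold change of ERG CKO over WT in ECs with its 95% interval for listed ETS family genes, genes known to be activated or held down by ERG or FLI1, and partner factors; filled symbols had an adjusted p at most 0.05. Of 22 activated genes 19 lay under 0, while Emcn (1.49) and Cd34 (1.06) rose.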

How the data were processed

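Whole lungs were dissociated and profiled by droplet single-cell RNA-seq in 2 WT and 2 ERG CKO libraries. The authors deposited 1 table of raw UMI counts, with 20076 gene rows and 9363 barcodes, made with Cell Ranger 3.1.0 on mm10 per the submitters' processing notes. The lowest cell held 500 UMIs, and library totals ran from 11263911 to 18646776 UMIs.

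Cells were clustered in Seurat 5.3.0 (2000 variable genes, the 67 listed genes left out, 30 dimensions, resolution 0.8, libraries aligned) and named from marker genes. A class needed 3 detected markers. Scrublet, in Scanpy 1.11.5, marked 60 doublets (0.641%), which were kept and left out in an alternative. Counts were summed per library and class and compared by edgeR 4.0.16 (quasi-likelihood test, TMM, two-sided) in classes with at least 20 cells in each library. Adjusted p is Benjamini-Hochberg over all genes tested, called at 0.05. DESeq2 1.42.0, other size factors, other filters and clusterings, thinning, a replicate block and leaving out each library were alternatives. The edgeR fit was tested on simulated data.

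The members and gene lists were chosen with earlier results of these data known. Genes were named if called, at most 8 per list by p, with the 2 largest estimates where fewer than 2 were called, and members always. Gabpa, Elk4, Elf2, Spi1, Spib, Ehf, Elf3, Cdh5, Robo4, Icam1 and Jun were named after their values were seen. 1 listed gene is not reported here. Likeness took the 5 nearest genes for Erg and 3 for the others. Within each group, replicate 1 held Xist RNA and replicate 2 held Ddx3y RNA, so the libraries of a group came from different mice. Nothing in the labels says whether they were dissociated and prepared separately, so p-values measure the spread between these libraries.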

Additional observations from a re-analysis of the deposited data

Results flagged for a closer look

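Among the values given above, 2 concern a group difference that itself differed between sets of ECs. For Fli1 the log2 fold change of ERG CKO over WT was larger by 0.92 in aCap ECs than in EC clusters 0, 1 and 2 together (SE 0.24, adjusted p = 0.0317, edgeR with mouse as a term). For Ets1 the same difference was 0.75 (SE 0.18, adjusted p = 0.0186). Both fits were added after the values had been seen, and in aCap ECs the WT libraries held 43 and 71 cells.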

How the results depend on the processing

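In ECs, Fli1 was called under each of the 13 alternatives that left out no library. Without a filter on low counts Elk3 became called (-0.47), 2 of the further ETS family genes were called, 10 activated genes, 4 held-down genes and 1 partner factor, with 1118 genes in all. Thinning to 1000 UMIs turned Elf1 to 0.047, gave 1 partner factor and left 186 genes called. EC resolution 0.3 turned Elf1 in gCap to 0.071. The cause was not tested.

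The labels do not say that equal replicate numbers mark a shared litter or day, though they separate libraries with Xist from those with Ddx3y in both groups, so the block is also one on sex, and deviations of same-numbered libraries in ECs correlated at r = 0.31 across 10639 genes over 2 pairs. With a replicate block, Elk3 was called in ECs (-0.46), in gCap (-0.66) and in EC cluster 0 (-0.53). Fli1 was then called in EC cluster 4 (0.91), and Ets1 in epithelial cells (2.0), the 1 call in the 10 other classes. The block called 1 further ETS gene, 12 activated genes, 3 held-down genes, 1 partner factor and 1252 genes in all.

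Leaving out 1 library at a time gave these ranges. In ECs they were -0.13 to 0.27 for Erg, 0.72 to 0.99 for Fli1, -0.024 to 0.15 for Ets1, -0.0076 to 0.17 for Ets2 and -0.47 to 0.031 for Etv6. In gCap they were -0.035 to 0.41 for Erg, 0.83 to 1.10 for Fli1, -0.11 to 0.23 for Ets1, -0.11 to 0.46 for Ets2 and -0.11 to 0.061 for Elf1. In aCap they were -0.33 to 0.56 for Erg, 0.65 to 0.79 for Ets1, -0.060 to 0.59 for Ets2 and -0.56 to 0.13 for Elk3. For ECs against other cells they were -0.13 to 0.53 for Erg, 0.50 to 0.78 for Fli1 and -0.054 to 0.0059 for Elf1. For aCap against clusters 0, 1 and 2 they were -0.41 to 0.48 for Erg, 0.80 to 1.14 for Fli1, 0.67 to 0.85 for Ets1 and -0.13 to 0.67 for Ets2. Calls ran from 0 to 3 in the 10 other classes, 0 to 2 for further ETS genes, 0 to 9 for activated genes, 0 to 1 for partner factors and 24 to 668 for all genes. With 2 libraries a group, leaving one out leaves a group with a single library. The 2 EC sets added after seeing the data, without clusters 4 and 7 or with the low-depth cluster, kept the call of Fli1.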

Other observations

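The unnamed clusters held members too. The low-depth cluster of 916 cells with EC markers had 156 and 171 CPM of Erg in WT and 143 and 132 CPM in ERG CKO, from 30 to 73 UMIs per library. These levels lay above those of the EC class in every library. A cluster of 343 cytotoxic lymphocytes had 847 and 898 CPM of Ets1 in WT and 926 and 880 CPM in ERG CKO, 303 and 251 against 321 and 267 CPM of Elf1, and 2 Erg UMIs in all.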
